A study of Mus musculus with 8 samples.

Results

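The genes described here make prostaglandins, break them down or encode their receptors. There were 10 of them, *Ptgs1*, *Ptgs2*, *Ptges*, *Ptges2*, *Ptgis*, *Hpgds*, *Hpgd*, *Ptger1*, *Ptger3* and *Ptger4*, and they were chosen by the large increase of *Ptgs2* in these same arrays. Values were given for 8 of the 10 genes, as the transcript cluster (the probe set of 1 gene on the array) with the highest mean for each symbol, out of 22822 clusters with exactly 1 gene symbol. No cluster was annotated to *Ptgs1* or *Ptger1* in the probe table used, and both genes were not analysed here. Because *Ptgs2* chose the set, the values of the 8 genes are given as a description, without p-values. Calls among them are counted beside the share over all clusters. The fits in which a call was made or lost are given, also as a description.

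RNA came from whole adrenal glands of 4 wild-type (WT) mice and 4 *Sf1:Cre;Prkar1aFl/Fl* mice (knockout, KO), female and 6 weeks old according to the methods, which also state that the WT mice were littermates. Knockout mice carry 2 floxed alleles of *Prkar1a*, which encodes a regulatory subunit of protein kinase A, and a Cre driven by *Sf1*, the gene of a transcription factor of steroid-producing cells. According to the methods Cre was active in every steroid-producing cell of the cortex, while the RNA came from the whole gland, with its capsule, vessels, medulla and immune cells. Each gland sample was hybridised to 1 Affymetrix Mouse Gene 2.0 ST array, and the labels call the samples biological replicates.

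Prostanoids are made from arachidonic acid. Phospholipases A release it from membrane lipids, a cyclooxygenase (the products of *Ptgs1* and *Ptgs2*) oxidises it to the intermediate prostaglandin H, and terminal synthases turn that into prostaglandins E, D and F, prostacyclin or thromboxane. The hormones leave the cell, act on G protein-coupled receptors of nearby cells and are inactivated mainly by 15-hydroxyprostaglandin dehydrogenase, the product of *Hpgd*. Cyclooxygenase-2, the product of *Ptgs2*, is the inducible enzyme of the pair, and its gene is known to respond to cyclic AMP, the messenger that activates protein kinase A.

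Promoter windows of the 2 genes with the highest positive changes are shown because a cyclic AMP response element can be read directly from the letters. RefSeq (GRCm38.p6) held a window for 7 of the 8 genes, from 250 bases before to 50 bases after the annotated transcription start (300 bases). The window of *Ptgs2* is chr1:150099781-150100080 and that of *Hpgd* is chr8:56294302-56294601, both on the + strand. Capitals mark matches, on either strand, to any of 5 motifs, namely the cyclic AMP response element TGACGTCA, its half-site CGTCA, which reads TGACG on the other strand, the E-box CACGTG, the C/EBP palindrome TTGCGCAA and the SF1 site CAAGGTCA (TGACCTTG on the other strand).
Ptgs2: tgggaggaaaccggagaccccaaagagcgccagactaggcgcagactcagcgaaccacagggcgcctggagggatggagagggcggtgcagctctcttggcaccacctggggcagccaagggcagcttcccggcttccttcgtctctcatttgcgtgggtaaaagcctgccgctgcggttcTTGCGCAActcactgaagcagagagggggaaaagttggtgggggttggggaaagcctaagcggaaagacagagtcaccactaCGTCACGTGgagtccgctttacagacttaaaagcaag
Hpgd: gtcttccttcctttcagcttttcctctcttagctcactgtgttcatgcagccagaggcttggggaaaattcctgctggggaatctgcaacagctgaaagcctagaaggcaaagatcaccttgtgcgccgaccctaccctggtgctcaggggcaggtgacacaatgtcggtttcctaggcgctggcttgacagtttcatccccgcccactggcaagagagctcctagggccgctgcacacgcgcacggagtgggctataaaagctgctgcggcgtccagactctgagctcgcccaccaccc
In the *Ptgs2* window the half-site CGTCA lay at bases 14 to 18, counted from the annotated start as 1, and the E-box CACGTG lay at bases 17 to 22 and shared 2 letters with it. The palindrome TTGCGCAA lay at bases -69 to -62. The *Hpgd* window held none of the 5 motifs. Among the other 5 windows, that of *Ptges2* held CACGTG at bases -77 to -72, and the rest held no match. Of 32817 RefSeq windows of this length, 1.79% held TGACGTCA, 20.8% held CGTCA or TGACG, 7.15% held CACGTG, 0.183% held TTGCGCAA and 1.56% held CAAGGTCA or its complement. These matches are letters in a window, and binding was not measured.

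Values are on the log2 scale after robust multi-array averaging (RMA), so a difference of 1 stands for a 2-fold difference in signal. The array medians lay between 5.66 and 5.72, and arrays of 1 genotype correlated at 0.988 to 0.995 across clusters, against 0.978 to 0.985 between the genotypes. *Prkar1a*, the targeted gene, read 8.83, 9.11, 9.04 and 8.70 in the WT arrays and 6.92, 7.30, 7.35 and 7.19 in the KO arrays, and it fell by 1.73 (SE 0.12, limma adjusted p = 1.19e-05). Markers of the adrenal cortex stayed high in both genotypes, with a mean of 12.14 to 12.27 in WT and 12.10 to 12.28 in KO over 7 genes, of which 1 was called higher (*Cyp11a1*, 0.24) and 1 lower (*Mc2r*, -0.61), while the 3 zona glomerulosa markers all fell. A gene is called higher or lower where the Benjamini-Hochberg adjusted p of limma, over all 22822 clusters, was under 0.05. In all, 1678 clusters (7.35%) were called higher in KO and 1407 (6.17%) lower. As a guide to background signal, 95% of the 1105 olfactory receptor symbols had a mean below 5.23. The number of arrays, 4 of each genotype, limits the precision, and the 95% intervals below come from limma.

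*Ptgs2* was the one gene of the 8 with a large difference. The WT arrays read 5.29, 5.02, 5.26 and 5.18, and the KO arrays read 8.07, 8.96, 9.57 and 8.68. All 4 KO arrays lay above all 4 WT arrays, with a gap of 2.77 between the highest WT and the lowest KO array. The means were 5.19 ± 0.12 and 8.82 ± 0.62 (SD, n = 4 each), a difference of 3.63 (SE 0.25, 95% interval 3.08 to 4.18), or 12.4-fold. In WT the signal was about that of background, with 2 of 4 arrays above the level of 5.23, so the fold is that of the measured signals. The KO arrays varied more than the WT arrays, with KO array 1 the lowest and KO array 3 the highest.

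**Figure D1:**
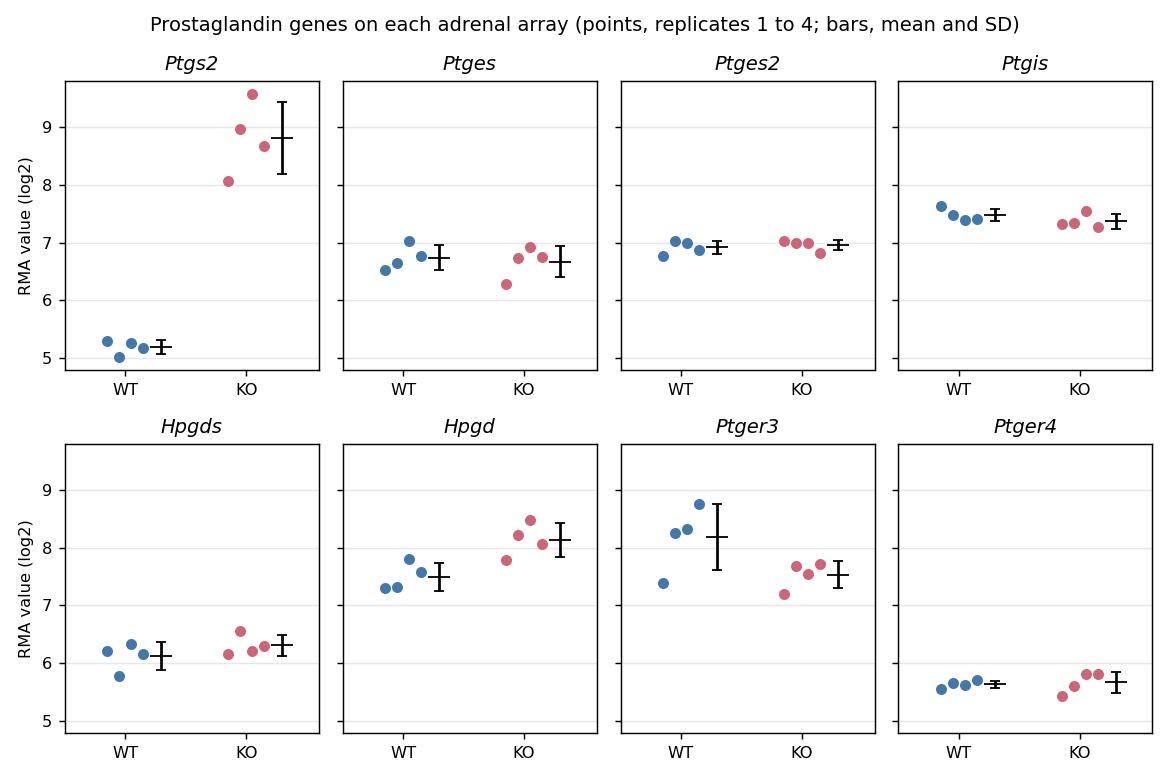
RMA values (log2, vertical axis) of the 8 measured prostaglandin genes on each array, with WT in blue and KO in red; points are replicates 1 to 4 from left to right, and the bars give the mean and SD. *Ptgs2* lies at 5.02 to 5.29 in WT and at 8.07 to 9.57 in KO, while the other 7 genes overlap between the genotypes.

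Macrophages, mast cells, vessels and stroma can also make prostaglandins, so their markers were read on the same arrays. Counts of called markers are to be read beside the 7.35% of all clusters called higher and the 6.17% called lower. Of 8 macrophage markers, 1 was called higher and none lower, and their mean ran from 7.51 to 7.82 in WT and from 7.74 to 7.97 in KO. Of 8 endothelial markers, 4 were called higher, with means of 8.47 to 8.63 and 8.67 to 8.87. The 8 capsule and fibroblast markers, of which 2 were called higher, averaged 7.98 to 8.29 in WT and 8.04 in KO array 1 but 8.62 to 8.74 in the other KO arrays. None of 5 lymphocyte and neutrophil markers was called, and their mean was 4.70 to 4.85 in WT and 4.72 to 4.88 in KO. That mean lay below the background level of 5.23, so it could hardly show a change. *Ptprc* alone of them lay above that level, at 7.19 in WT and 7.33 in KO. The part of these cells in the *Ptgs2* difference was not tested. In a whole gland, more cells of a type and more RNA per cell cannot be told apart.

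The 4 terminal synthases differed little between the genotypes, and none was called. *Ptges* encodes the inducible microsomal prostaglandin E synthase, which is known to work together with cyclooxygenase-2. Its values were 6.52, 6.64, 7.03 and 6.77 in WT and 6.28, 6.74, 6.92 and 6.74 in KO. KO array 1 was the lowest of all 8 arrays and WT array 3 the highest, the rest overlapped, and the difference was -0.068 (SE 0.14, 95% interval -0.39 to 0.25). *Ptges2*, a second prostaglandin E synthase of membranes, read 6.78, 7.03, 7.00 and 6.87 in WT and 7.02, 7.00, 6.99 and 6.82 in KO. Its difference was 0.039 (SE 0.079, 95% interval -0.14 to 0.21), with KO array 4 below the other 3 KO arrays.

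*Ptgis*, prostacyclin synthase, an enzyme of vessel walls, read 7.63, 7.48, 7.40 and 7.41 in WT and 7.32, 7.33, 7.55 and 7.27 in KO. The KO arrays were lower except array 3, which lay above 3 of the WT arrays, and the difference was -0.11 (SE 0.083, 95% interval -0.30 to 0.071). *Hpgds*, the haematopoietic prostaglandin D synthase of mast cells and other immune cells, read 6.21, 5.77, 6.34 and 6.16 in WT and 6.15, 6.56, 6.21 and 6.30 in KO. The overlap was broad and the difference was 0.19 (SE 0.13, 95% interval -0.098 to 0.47). The 8 mast cell markers averaged 4.72 to 5.09 in WT and 4.62 to 4.97 in KO, below the background level of 5.23. Of these markers, 1 was called higher (*Hdc*, 1.09) and 1 lower (*Kit*, -0.46). Only *Hdc* (7.23), *Cpa3* (6.68) and *Kit* (6.09) had a WT mean above that level. *Cpa3* differed by -0.95 (SE 0.33) and was not called. For these 4 synthases the intervals lay within 0.5 of zero on the log2 scale.

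The breakdown enzyme also had a higher mean in knockout adrenals, but its call did not hold in every fit. *Hpgd*, whose product oxidises prostaglandins E and F to inactive keto forms, read 7.29, 7.31, 7.81 and 7.57 in WT and 7.78, 8.22, 8.47 and 8.06 in KO. Only KO array 1 overlapped, lying just below WT array 3. The means were 7.49 ± 0.24 and 8.13 ± 0.29 (SD, n = 4 each), a difference of 0.64 (SE 0.15, 95% interval 0.30 to 0.98), or 1.56-fold. *Hpgd* lost its call without WT array 1, without WT array 2 or without KO array 2, when its difference was 0.57, 0.58 and 0.61. It was also not called by the methods' test per gene or by a test with unequal variances. The KO arrays had the same order for *Hpgd* as for *Ptgs2*, from array 1 through 4 and 2 to 3. This order was noticed after the values were seen, and it was found in 5.47% of all clusters and in 9.06% of those called higher.

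Of the 2 prostaglandin E receptors in the set, *Ptger3* showed the wider difference. It encodes EP3, the prostaglandin E receptor that mostly couples to the inhibitory G protein and lowers cyclic AMP. Its values were 7.38, 8.25, 8.32 and 8.75 in WT and 7.20, 7.67, 7.55 and 7.71 in KO. WT arrays 2, 3 and 4 lay above all KO arrays, and WT array 1 lay below 3 of them. The means were 8.18 ± 0.57 and 7.53 ± 0.23 (SD, n = 4 each), a difference of -0.64 (SE 0.24, 95% interval -1.18 to -0.11) that was not called. Over single arrays left out, the difference ran from -0.91 without WT array 1 to -0.45 without WT array 4. Among these fits the gene was called lower only without WT array 1.

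WT array 1 also stood apart in markers of fat cells, which express *Ptger3*. The mean of 8 adipocyte markers was 7.71 in WT array 1 and 9.54, 9.45 and 9.74 in WT arrays 2, 3 and 4, against 6.45, 7.19, 8.06 and 7.34 in the KO arrays. Of these markers 6 were called lower in KO and none higher, against 6.17% and 7.35% of all clusters. Tests with equal and with unequal variances called none of the 8. *Lep*, 1 of the 8, went the other way, 1.05 higher in KO (SE 0.51), and was not called. For *Lep*, WT array 1 (6.05) lay within the range of the other WT arrays (5.68 to 6.41). *Ucp1*, the uncoupling protein of brown fat, read 5.95 in WT array 1, 9.91 to 10.64 in the other WT arrays and 4.25 to 4.96 in KO. The plot of *Ptger3* against these markers shows WT array 1 among the KO arrays on both axes. The part of attached fat in the *Ptger3* difference was not tested.

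**Figure D2:**
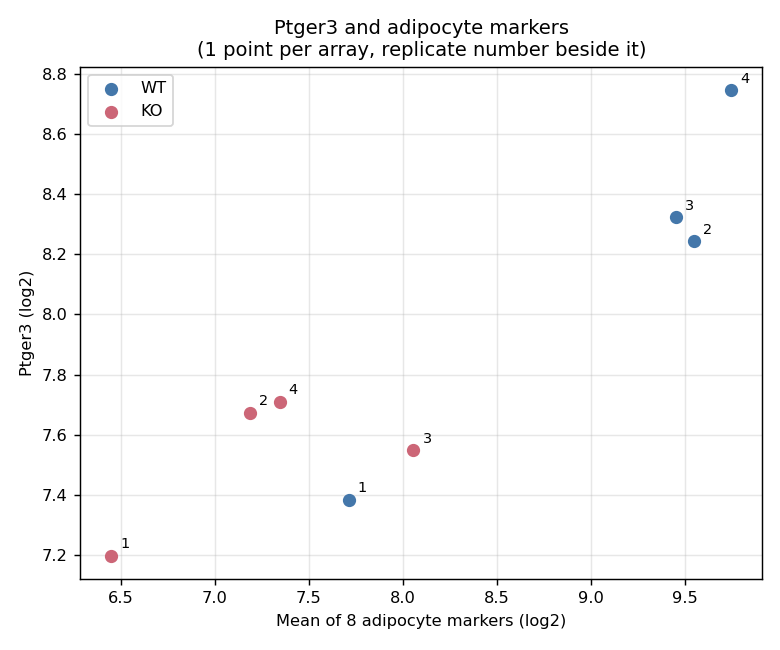
*Ptger3* (log2, vertical axis) against the mean of 8 adipocyte markers (log2, horizontal axis), 1 point for each array with its replicate number. WT arrays 2 to 4 (blue) lie at the upper right, and WT array 1, at 7.71 and 7.38, lies with the KO arrays (red).

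*Ptger4* encodes EP4, a prostaglandin E receptor that raises cyclic AMP. It read 5.56, 5.65, 5.62 and 5.71 in WT and 5.43, 5.60, 5.82 and 5.82 in KO. The KO arrays lay on both sides of the WT arrays, and the difference was 0.032 (SE 0.093, 95% interval -0.17 to 0.24). Over the 8 genes measured, 2 were called higher (*Ptgs2* and *Hpgd*) and none lower, against 7.35% and 6.17% of all clusters. In 1 of the 8, *Ptgs2*, every KO array lay above every WT array, as in 10.03% of all clusters, and none had every KO array below, against 8.95%. The median difference was 0.035, against -0.020 over all clusters. The set was selected on this contrast, so nothing is read from these counts.

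The rest of the pathway was read from 56 further genes listed by function, of which 51 were measured. Of these, 12 were called higher and 3 lower, against 7.35% and 6.17% of all clusters, 36 were not called, and the median difference was 0.0055. All KO arrays lay above all WT arrays in 11 of them and below in 4, against 10.03% and 8.95% of all clusters. The counts of each list below are to be read beside these shares. With the methods' test per gene, which does not pool the spread over genes, 8 were called higher and 2 lower. The plot of changes by role gives all 51.

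**Figure D3:**
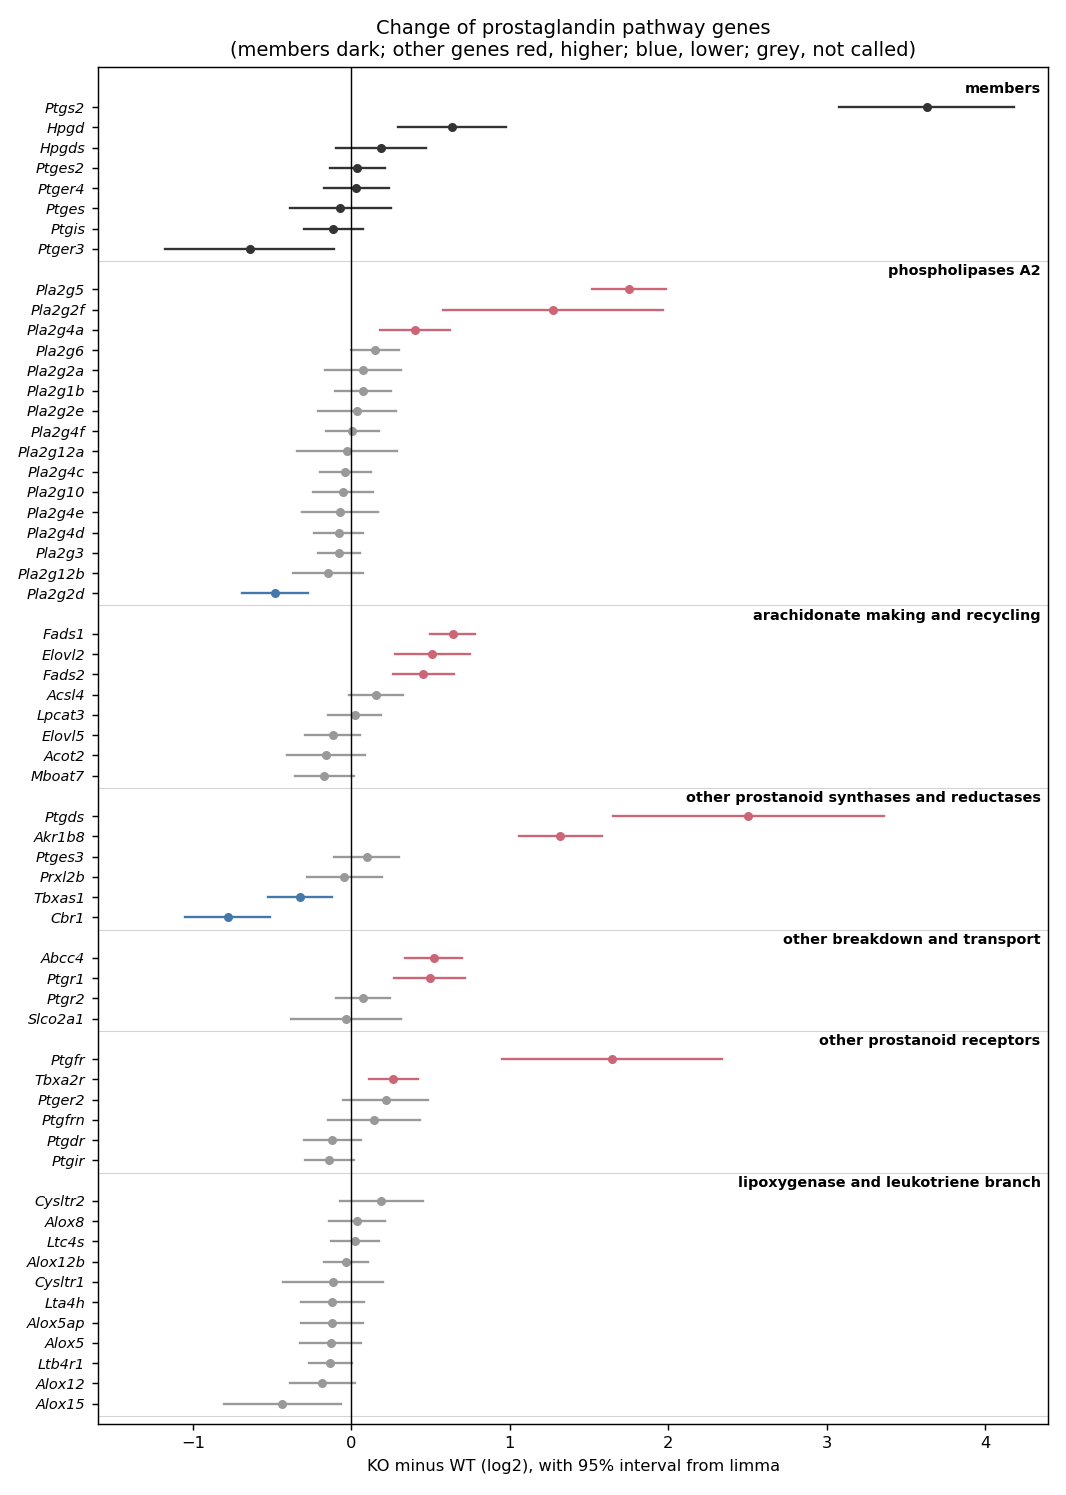
Difference KO minus WT (log2, horizontal axis) with its 95% interval from limma for the 8 measured genes (dark, top) and 51 further pathway genes by role, red where called higher, blue where called lower and grey where not called. *Ptgs2* at 3.63 and *Ptgds* at 2.51 lie farthest to the right, and no gene of the lipoxygenase branch is called.

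Upstream of the cyclooxygenases, 3 of 16 measured phospholipases A2 rose and 1 fell, with a list median of -0.0098. *Pla2g5*, a secreted phospholipase, read 7.58, 7.33, 7.47 and 7.73 in WT and 9.09, 9.20, 9.37 and 9.47 in KO. The genotypes were separated by a gap of 1.36, and *Pla2g5* rose by 1.75 (SE 0.11, limma adjusted p = 6.20e-06). *Pla2g2f*, another secreted enzyme, rose by 1.27 (SE 0.31, adjusted p = 0.0216) but varied widely, from 6.50 to 7.81 in WT and from 7.66 to 8.83 in KO, so that KO array 2 overlapped WT. *Pla2g2d*, a secreted enzyme of lymphoid tissue, fell by 0.48 (SE 0.094, adjusted p = 0.00635), from 7.14 to 7.39 in WT to 6.52 to 6.86 in KO. *Pla2g2f*, *Pla2g2d* and *Pla2g5* follow each other on chromosome 4, so these neighbours did not all move the same way. *Pla2g4a*, the cytosolic phospholipase that is selective for arachidonic acid, rose by 0.40 (SE 0.099, adjusted p = 0.0215), with 6.84 to 7.24 in WT and 7.34 to 7.60 in KO. The call of *Pla2g2f* was lost without WT array 2 or 4 or KO array 3 or 4, with adjusted p of 0.0573 to 0.0643, and that of *Pla2g4a* without WT array 2 or KO array 2 or 3 (0.0519 to 0.0646).

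Among 8 genes of arachidonate making and recycling, 3 rose and none fell, with a list median of 0.088. *Fads1* and *Fads2*, the desaturases on the route from linoleic to arachidonic acid, read 11.35 to 11.46 and 11.85 to 12.22 in WT. In KO they read 11.98 to 12.10 and 12.35 to 12.51. *Fads1* rose by 0.64 (SE 0.063, limma adjusted p = 0.000112) and *Fads2* by 0.45 (SE 0.087, adjusted p = 0.00587), and neither overlapped between the genotypes. *Elovl2*, which elongates arachidonic acid further rather than making it, rose by 0.51 (SE 0.11, adjusted p = 0.00918), but was not called by the methods' test (0.0529). *Acsl4* and *Lpcat3*, which put arachidonic acid back into phospholipids, were not called, with differences of 0.15 (SE 0.077) and 0.021 (SE 0.076).

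Of 6 other synthases and reductases, 2 rose and 2 fell, with a median of 0.026. *Ptgds*, the lipocalin-type prostaglandin D synthase, read 6.17, 6.07, 6.13 and 6.42 in WT and 10.10, 8.29, 7.80 and 8.62 in KO. Every KO array was higher, but the highest was KO array 1, where *Ptgs2* was lowest, and the lowest was KO array 3, where *Ptgs2* was highest. *Ptgds* rose by 2.51 (SE 0.39, limma adjusted p = 0.00166). It therefore rose while *Hpgds*, the other prostaglandin D synthase, read 0.19 higher (SE 0.13) and was not called, and the difference between the 2 changes was not tested. *Tbxas1*, thromboxane synthase, fell by 0.32 (SE 0.090, adjusted p = 0.0382), from 6.23 to 6.54 in WT to 5.93 to 6.18 in KO. Its call was lost without WT array 1 or 3, or KO array 1, 3 or 4, with adjusted p of 0.0687 to 0.104.

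Both reductases that moved belong to families with broad substrates. *Cbr1*, a carbonyl reductase that can turn prostaglandin E into F, read 9.68 to 9.97 in WT and 8.68 to 9.29 in KO, and it fell by 0.78 (SE 0.12, limma adjusted p = 0.00168). *Akr1b8*, an aldo-keto reductase, read 7.02 to 7.41 in WT and 8.38 to 8.86 in KO, and it rose by 1.32 (SE 0.12, adjusted p = 6.48e-05). *Akr1b8* has close relatives, among them *Akr1b7*, which was not analysed here, and whether the probes separate them was not tested. *Ptges3* was represented by a cluster at 4.18 in WT, below the background level, so its difference of 0.096 (SE 0.093) is not a measure of the cytosolic prostaglandin E synthase.

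In the breakdown and transport list 2 of 4 genes rose and none fell, with a median of 0.28. *Ptgr1*, a reductase that acts on the keto products of *Hpgd*, read 6.77, 6.67, 6.83 and 6.70 in WT and 6.97, 7.34, 7.46 and 7.17 in KO. The groups did not overlap, and *Ptgr1* rose by 0.49 (SE 0.10, limma adjusted p = 0.00865). *Abcc4*, a membrane pump that exports prostaglandins, read 7.33 to 7.60 in WT and 7.93 to 8.11 in KO and rose by 0.52 (SE 0.082, adjusted p = 0.00183). *Slco2a1*, the prostaglandin uptake carrier, differed by -0.031 (SE 0.16), with a 95% interval of -0.38 to 0.32, and was not called.

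Among 6 other receptors and partners, 2 rose and none fell, with a median of 0.18. *Ptgfr*, the receptor of prostaglandin F, which couples to calcium signalling, read 5.91, 5.67, 5.88 and 5.68 in WT and 6.86, 6.70, 7.76 and 8.40 in KO. All KO arrays lay above all WT arrays, with KO arrays 3 and 4 well above 1 and 2, and *Ptgfr* rose by 1.65 (SE 0.31, limma adjusted p = 0.00552). *Tbxa2r*, the thromboxane receptor, rose by 0.27 (SE 0.069, adjusted p = 0.0290), with 6.56 to 6.78 in WT and 6.85 to 6.97 in KO. Its call was lost without any 1 of WT arrays 2, 3 and 4 or KO arrays 1, 2 and 4, with adjusted p of 0.0576 to 0.0862. *Ptger2*, the other receptor of prostaglandin E that raises cyclic AMP, had a mean below the background level in both genotypes and was not called (difference 0.22, SE 0.12).

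**Figure D4:**
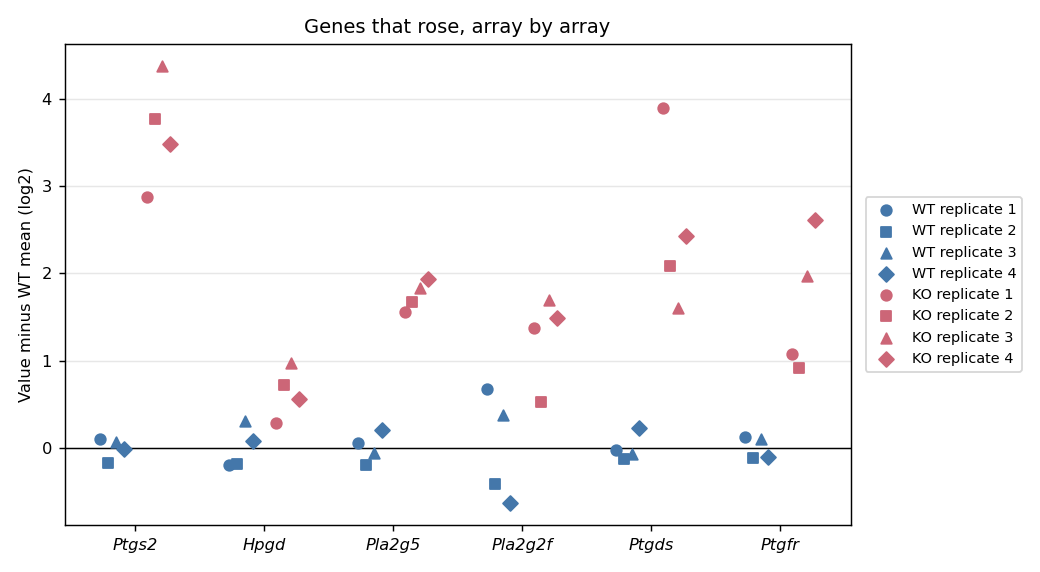
Value minus the WT mean (log2, vertical axis) of 6 genes called higher, for each WT array (blue) and KO array (red), with a symbol for each replicate number. KO array 1 (circle) is the lowest KO array for *Ptgs2* and *Hpgd* and the highest for *Ptgds*, and *Ptgfr* is highest in KO array 4 (diamond).

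The lipoxygenase and leukotriene branch, which competes for the same arachidonic acid, held no call among 11 measured genes with limma, and 1 gene had an unadjusted p under 0.05. Tests with equal and with unequal variances called none either. *Alox15*, a lipoxygenase, showed the largest difference at -0.44 (SE 0.17, adjusted p = 0.125), with 5.46 to 5.86 in WT and 4.86 to 5.70 in KO. *Cysltr2*, a leukotriene receptor, lay at 4.62 to 5.13 in WT and 4.98 to 5.31 in KO, around background (difference 0.19, SE 0.12, adjusted p = 0.355). Without KO array 2, *Alox15* was called lower at -0.58 (limma adjusted p = 0.0296). Without KO array 1 its difference was -0.30 (adjusted p = 0.255) and it was not called.

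The genes whose profile lay closest to that of *Ptgs2* were found over the 8 arrays, as the smallest root mean square difference between values centred on the WT mean. *Atp12a*, a proton and potassium pump, came first at 0.31, with 4.73, 5.40, 4.82 and 5.23 in WT and 7.58, 8.65, 9.58 and 8.49 in KO. Its KO arrays ran in the order of *Ptgs2*, from array 1 through 4 and 2 to 3. That order was found in 5.47% of all clusters and in 9.06% of those called higher. Closeness over the same arrays chose *Atp12a*, so nothing is read from its order. *Erfe*, which encodes the iron hormone erythroferrone, and *St8sia5*, a sialyltransferase of gangliosides, both followed at 0.46. *Rhcg*, an ammonium transporter, lay at 0.67 and *Homer2*, a scaffold protein of synapses, at 0.69. These 5 genes differed by 2.86 to 3.53 between the genotypes, but the WT means of *Atp12a* (5.05), *St8sia5* (4.92) and *Homer2* (4.93) lay below the background level, as did that of *Ptgs2*, so these are differences of measured signals. Since the measure follows the size of the change, they are a description of like values.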

How the data were processed

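The authors normalized the arrays by RMA, which corrects the background, equalises the distributions of the arrays and summarises probes, and they deposited log2 values for each array. Quantile normalization can hide a shift shared by most genes. A second deposited table held only the authors' own comparison (fold changes on a log2 scale and adjusted p-values) and was not used. Every value column was mapped to a sample by its label (0 columns were left unmapped). Genotype comes from the labels, and the age of 6 weeks and the littermates from the methods.

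Of 28067 clusters, 22822 carried exactly 1 gene symbol in the platform annotation (21905 symbols), 1703 carried several and 3542 none. Limma 3.58.1 in R 4.3.3 (lmFit, eBayes, no covariate, two-sided) was fitted on the 22822 clusters, and the highest-mean cluster stood for a symbol. The methods' t-test per gene with Benjamini-Hochberg adjustment was an alternative, beside unequal variances, an intensity trend with robust variances, array weights, a replicate block, median centring, repeated quantile normalization, dim clusters left out, all clusters, each array left out and a log2 change beyond 1. On simulated data of the same 22822 clusters with 4 against 4 arrays, 50 genes were changed at each size. The fit called 64% of genes changed by 0.5 and 100% of those changed by 1, 2 or 4 on the log2 scale, and 5.70% of calls were false. Far more clusters were called in the real contrast, and the adjustment depends on how many change, so these shares need not hold for it.

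The 10 prostaglandin genes and all lists were chosen with earlier results of these data known. Named were all 10, every called gene of the pathway lists, the 2 genes with the largest change in a list with no call, the 5 profiles nearest to *Ptgs2*, *Prkar1a* and markers beside which a gene moved. *Acsl4*, *Lpcat3*, *Slco2a1*, *Ptges3* and *Ptger2* were named for their roles after their values were seen. *Pla2g4b* and *Ptgdr2* share clusters with other genes and, like *Ltb4r2*, were not analysed here. Gene IDs of all 59 measured genes matched RefSeq, whose coordinates are those of GRCm38.p6. Motif searches and figures used Python 3.11.15, pandas 2.3.3 and matplotlib 3.10.9.

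Replicate numbers were not taken to pair the samples, and the labels name no pairs. Same-numbered WT and KO arrays deviated from their group means with correlations of -0.040 to 0.042, and other combinations with -0.13 to 0.15. Such correlations over many clusters cannot show whether littermates shared a number, so pairing is not known. The labels call the samples biological replicates, and array batches were not analysed here.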

Additional observations from a re-analysis of the deposited data

Results flagged for a closer look

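In 3 cases 1 array of a genotype lay far from the other 3, among 50 combinations of gene and genotype looked at, and chance alone flags about 1 in 20. *Ptges2* read 6.82 in KO array 4, against 6.99 to 7.02 in the other KO arrays. *Pla2g2d* read 6.52 in KO array 2, against 6.83 to 6.86 in the others. *Abcc4* read 7.33 in WT array 4, against 7.59 to 7.60 in the other WT arrays. The cause of these values was not tested.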

How the results depend on the processing

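*Hpgd* was the gene lost where 1 in place of 2 of the 8 genes was called higher, which happened with equal variances, with unequal variances and with a log2 change beyond 1, and the count ran from 1 to 2 over single arrays left out. *Ptger3* was the 1 gene called lower with the replicate block, and the count ran from 0 to 1 over single arrays left out. Of the 51 pathway genes, unequal variances left 4 called higher and 0 lower, and a change beyond 1 left 5 and 0. Over single arrays left out the pathway counts ran from 9 to 12 higher and from 2 to 4 lower. Over all clusters, unequal variances called 710 higher and 492 lower, a change beyond 1 left 246 and 212, equal variances called 920 lower, and the replicate block called 1423 and 1185. Single arrays left out gave 1315 to 1584 higher and 1041 to 1310 lower. The t-test with equal variances left 8 pathway genes higher and 2 lower. It ended the calls of *Pla2g2f* (adjusted p = 0.121), *Pla2g4a* (0.0782), *Elovl2* (0.0529), *Tbxas1* (0.0953) and *Ptgfr* (0.0611). Unequal variances kept the calls of *Pla2g5*, *Fads1*, *Akr1b8* and *Abcc4* alone among the 15, and *Ptgds* then stood at 0.116. Those 4 genes were called at an adjusted p under 0.05 in every fit, but *Fads1* and *Abcc4* changed by less than 1. The intensity trend ended the call of *Pla2g2f* (0.0598). Besides *Ptger3*, the replicate block ended the calls of *Tbxas1* (0.0772) and *Tbxa2r* (0.0674) and called *Alox15* (0.0369), and among the other measured prostaglandin genes and called pathway genes it changed no call. *Tbxas1* was not called with each array centred on its median (0.0518). The cause was not tested. No called gene changed direction, and the median of all clusters stayed between -0.024 and 0.0087. Genes near the background level, such as *Ptger2* and *Cysltr2*, cannot show a small difference on these arrays.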
